A study of Mus musculus with 24 samples.

Results

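Rab GTPases were read on Agilent 1-colour microarrays of the mouse hippocampus as 54 genes out of 26618 genes tested. A member was any gene whose probe name was Rab followed by a number with an optional letter, from Rab1 to Rab43, without Rab37 and without names of Rab-interacting or Rab-activating proteins. This gave 108 probes, of which 105 were well above background on at least 4 of the 24 arrays and were kept. All 54 genes kept at least 1 probe, and the 3 probes left out belonged to Rab13, Rab27b and Rab34, which kept others. For 35 genes several probes were kept, up to 4 a gene, and the brightest of them on average was chosen for the gene. That probe was well above background on all 24 arrays for 52 of the 54 genes, the exceptions being Rab21 and Rab25, and was saturated on none. Members were grouped as exocytic (6 Rab3 and Rab27 genes), early endosomal (3 Rab5 genes), recycling (4 Rab4 and Rab11 genes) and other (41 genes).

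The RNA came from hippocampi of C57Bl/6 mice, 1 mouse to an array, in 6 groups of 4. Young mice were 3 months old and old mice 16 months old. Young control and old control mice were handled but not trained. Young fear and old fear mice spent 3 min in a conditioning chamber and then received 1 foot shock of 0.7 mA for 2 s, and hippocampi were taken 1 h later. Young context mice saw the chamber without a shock, and young shock-context mice were shocked on entry, before they explored. All groups are whole hippocampus with no genetic change, so every value is a mixture of all cell types in the dissected tissue; the sex of the mice is not given in the sources used here.

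Rab proteins are small GTPases that switch between a GTP-bound form, which sits on a membrane and recruits effectors, and a GDP-bound form, which GDP dissociation inhibitors keep in the cytosol. Exchange factors turn them on and GTPase-activating proteins turn them off, and each Rab marks a particular step of transport between the endoplasmic reticulum, Golgi, endosomes and plasma membrane. In neurons Rab3 and Rab27 act on synaptic and secretory vesicles, Rab5 on early endosomes, and Rab4 and Rab11 on the return of internalised receptors to the surface, which includes the cycling of glutamate receptors at synapses.

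Because many Rab genes are read at several places along the transcript, and some results below depend on which place is read, the probes of 6 genes are shown from 5′ to 3′, upstream probe first, with positions on the mm9 build from the file annotation. Rab6, Rab23, Rab34, Rab12 and Rab1 are shown since their probes disagreed after training, and Rab10 since a pair of its probes overlaps, which gives a repeat measurement of 1 stretch. The Rab6 probes lie at chr7:107785246-107787798, a span wider than the 60 bases of the probe and so across a splice junction, and at chr7:107789641-107789700. Those of Rab23 lie at chr1:33796143-33796202, chr1:33797459-33797518 and chr1:33799261-33799320. The Rab34 pair lies at chr11:78003691-78003843 and chr11:78005629-78005688, and the Rab1 pair at chr11:20125096-20125155 and chr11:20126278-20126337, all on the plus strand. The Rab12 probes lie on the minus strand at chr17:66855385-66868698, chr17:66849055-66849114 and chr17:66844642-66844701, and the Rab10 probes on the minus strand at chr12:3252628-3252687 and chr12:3249867-3252667. Whether a probe lies in coding sequence or in a UTR was not determined here, and of probes that could lie in a UTR the first 30 bases are printed. Capitals in the Rab10 probes mark the 40 bases they share.
Rab6 upstream: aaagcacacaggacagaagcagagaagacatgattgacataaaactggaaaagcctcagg
Rab6 downstream: cataccctgtaacttatactcaaacatggg
Rab23 upstream: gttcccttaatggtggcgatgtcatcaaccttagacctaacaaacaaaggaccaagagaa
Rab23 middle: ccttaatcagtcattttacttagaaaatat
Rab23 downstream: gtaaatccgaatagaaaactacttgtatgt
Rab34 upstream: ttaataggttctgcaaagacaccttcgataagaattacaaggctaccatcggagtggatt
Rab34 downstream: taaaaatgcttaatgattttagccttacac
Rab12 upstream: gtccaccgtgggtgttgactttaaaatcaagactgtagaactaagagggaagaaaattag
Rab12 middle: ttgtctccaattcctttacgttacaagcac
Rab12 downstream: tccgatgagaagagaggacctggtgcttcg
Rab1 upstream: cttgttgctttcctgataccagatcgtttc
Rab1 downstream: ttctttccaattgtatgaatcatgttggtg
Rab10 first: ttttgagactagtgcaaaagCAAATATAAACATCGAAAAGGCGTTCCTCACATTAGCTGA
Rab10 second: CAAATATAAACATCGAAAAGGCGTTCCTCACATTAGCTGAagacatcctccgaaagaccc

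A level here is the log2 of a probe's signal over the 75th percentile of its array, so it can be compared between arrays but not between probes. Scanning took place in separate runs. The first held the 16 arrays of the control and fear groups, whose 75th percentile lay between 757 and 2137 with 86.2 to 93.8% of probes well above background. The second held the 8 arrays of the context and shock-context groups, where these values were 3101 to 8369 and 75.1 to 81.4%. Old control array 2 stood apart from its group: the SD of its differences to the other 3 was 0.86 to 0.95, against 0.30 to 0.61 for other pairs of control and fear arrays. The hippocampal markers Slc17a7, Prox1 and Wfs1 were well above background on every array, but not steady: Slc17a7, the vesicular glutamate transporter of excitatory neurons, lay at 0.82 ± 0.54 in young control, 2.75 ± 0.36 in young fear, 1.03 ± 0.43 in old control and 0.90 ± 0.17 in old fear (SD, n = 4), and Prox1, of granule cells, had an SD of 2.51 in old control. Choroid plexus markers, from tissue that borders the hippocampus, moved with training in young mice: all 20 fell in young fear against young control under the 75th percentile and 19 under quantile and median scaling, and their summed signal, in multiples of the 75th percentile, was 105 to 173 in young control, 15 to 20.6 in young fear, 108 to 174 in old control and 102 to 119 in old fear. Each of the 20 was well above background on at least 1 array of every group. Ttr, the transport protein of that tissue, lay at 4.16 ± 0.59 in young control and at -0.67 ± 1.31 in young fear (SD, n = 4). Of 19 thalamus markers 12 rose and 1 fell, with summed signals of 24.4 to 28.3, 33.5 to 36.4, 27 to 34.1 and 41.5 to 54.4 in the same order. From young control to young fear the summed signal also moved without overlap for astrocyte markers (183 to 220, then 134 to 146; 2 of 12 rose and 5 fell), microglia (45.6 to 60.4, then 34.5 to 37.8; 3 of 16 rose and 6 fell), blood (58.0 to 79.5, then 30.1 to 45.7; 5 of 6 fell), excitatory neurons (128 to 134, then 105 to 118; 2 of 17 rose and 6 fell) and oligodendrocytes (143 to 152, then 175 to 193; 6 of 15 rose and 3 fell). Interneuron and endothelial markers overlapped, with 3 rises and 3 falls of 12 and 6 and 3 of 13. The part of these marker levels in the Rab results was not tested.

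The first question was which Rab genes differed 1 h after fear conditioning in young mice. Of the 54 genes, 9 rose and 21 fell in young fear against young control by limma with Benjamini-Hochberg adjustment over all genes, at a threshold of 0.05. The background was high: 43.4% of all genes passed, 13.1% as rises and 30.2% as falls. Rab12, which directs transferrin receptor to lysosomes, rose most, and Rab20, a Rab of phagosomes, fell most. The median change of the Rab genes was -0.23 on the log2 scale, against -0.35 for all genes, and 35 of 54 lay above that median of all genes. The direction split depended on scaling: quantile normalization gave 14 rises and 13 falls, median scaling 11 and 11, and the authors' deposited values 14 and 11, while over all genes 3499 rises and 8044 falls became 4759 and 5964 under quantile normalization, where the median of all genes was -0.14. A total of 19 genes kept their call and direction under both scalings, all 9 rises and 10 of the 21 falls. What share of all genes did so was not counted. Median scaling too moved the median of all genes up, to -0.20. Such shifts favour keeping rises over keeping falls, so this split does not compare how robust rises and falls were. Each slide of the first run held 1 array of each group, and the difference within a slide had the direction of the call on all 4 slides for every one of the 30 genes except Rab3c and Rab17, with 3 slides. This agreement was not counted over all genes. With the slide as replicate block Rab3c lost its call (adjusted p = 0.0666) and Rab25, at -0.65, gained one (0.0189). In bulk tissue, fewer cells of a type and less RNA per cell cannot be told apart.

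**Figure D1:**
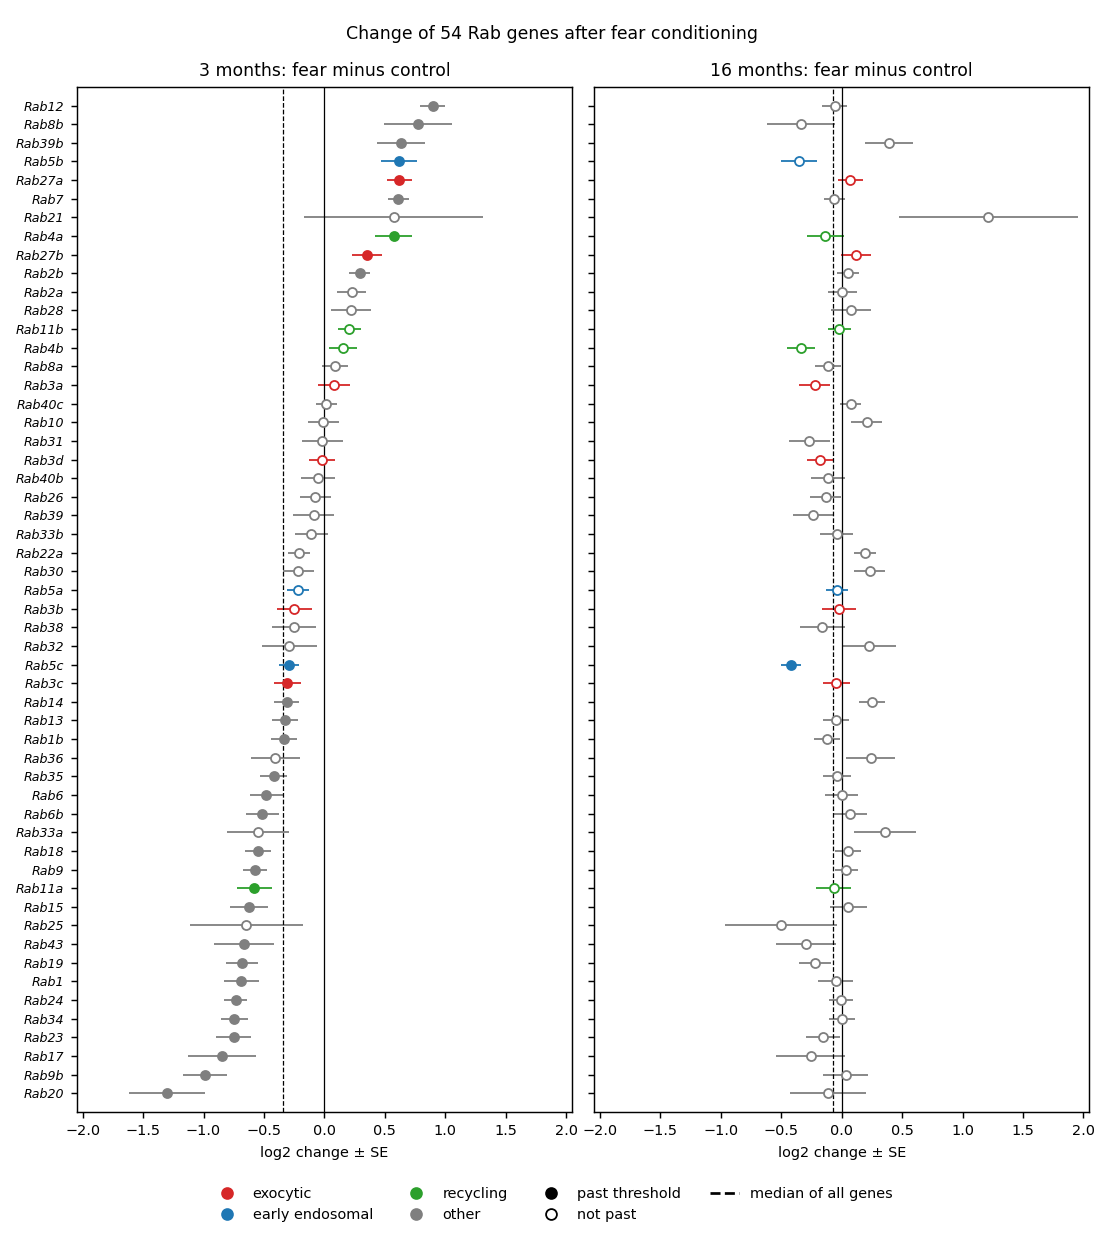
Log2 change of each of the 54 Rab genes after fear conditioning, with the SE of the fit as bars, at 3 months (left) and 16 months (right); filled points passed the threshold, colours give the class and the dashed line is the median of all genes. At 3 months 30 genes are filled and run from -1.30 (Rab20) to 0.90 (Rab12), and at 16 months Rab5c alone is filled.

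Among the exocytic Rab genes, the Rab27 pair rose while none of the 4 Rab3 genes did. Rab27a, which docks secretory granules and exosome-forming compartments at the plasma membrane, was read at chr9:72944668-72944727. Its levels were -2.14, -2.10, -1.91 and -2.18 in young control and -1.30, -1.49, -1.56 and -1.50 in young fear. Every young fear array lay above every young control array, and the change of 0.62 ± 0.10 (SE; 1.54-fold) passed the threshold (limma, adjusted p = 5.19e-05), although with normexp background correction it was 0.30 (adjusted p = 0.366). A second Rab27a probe, well above background on 19 arrays, changed by 0.70 ± 0.19. Rab27b, its brain-rich paralogue, lay at -0.12, 0.25, -0.35 and -0.06 in young control and at 0.21, 0.26, 0.23 and 0.41 in young fear. These groups overlapped, the change was 0.35 ± 0.13 (limma, adjusted p = 0.0286), it lost its call without young control array 1 or 3 or young fear array 4, at 0.33, 0.26 and 0.31, and a second probe of Rab27b went the other way, at -0.60 ± 0.22.

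Rab3a, the principal Rab of synaptic vesicles, was level: 5.94, 5.82, 6.07 and 5.71 in young control, and 5.96, 5.94, 6.09 and 5.86 in young fear. The change was 0.08 ± 0.13 (limma, adjusted p = 0.625), but quantile normalization gave 0.53 (adjusted p = 0.00189). Rab3c, a second vesicle Rab, lay at -0.34, -0.45, -0.41 and -0.92 in young control and between -0.85 and -0.81 in young fear. Of the 4 control arrays 3 lay above all young fear arrays and array 4 below them. Its fall of 0.31 ± 0.11 (limma, adjusted p = 0.0351) lost its call when any 1 of the other 7 arrays was left out, at -0.31 to -0.24, kept it without young control array 4, at -0.44, and was -0.16 under median scaling. Rab3b lay at 1.90, 2.06, 1.34 and 1.70 in young control and at 1.47, 1.44, 1.51 and 1.59 in young fear, within the control range, with a change of -0.25 ± 0.14 that did not pass, though its second probe did at -0.36 ± 0.09 (adjusted p = 0.00323 over all probes). Rab3d, found on secretory granules, lay at -1.45, -1.28, -1.27 and -1.35 and then at -1.41, -1.48, -1.35 and -1.18, overlapping groups with a change of -0.02 ± 0.11.

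**Figure D2:**
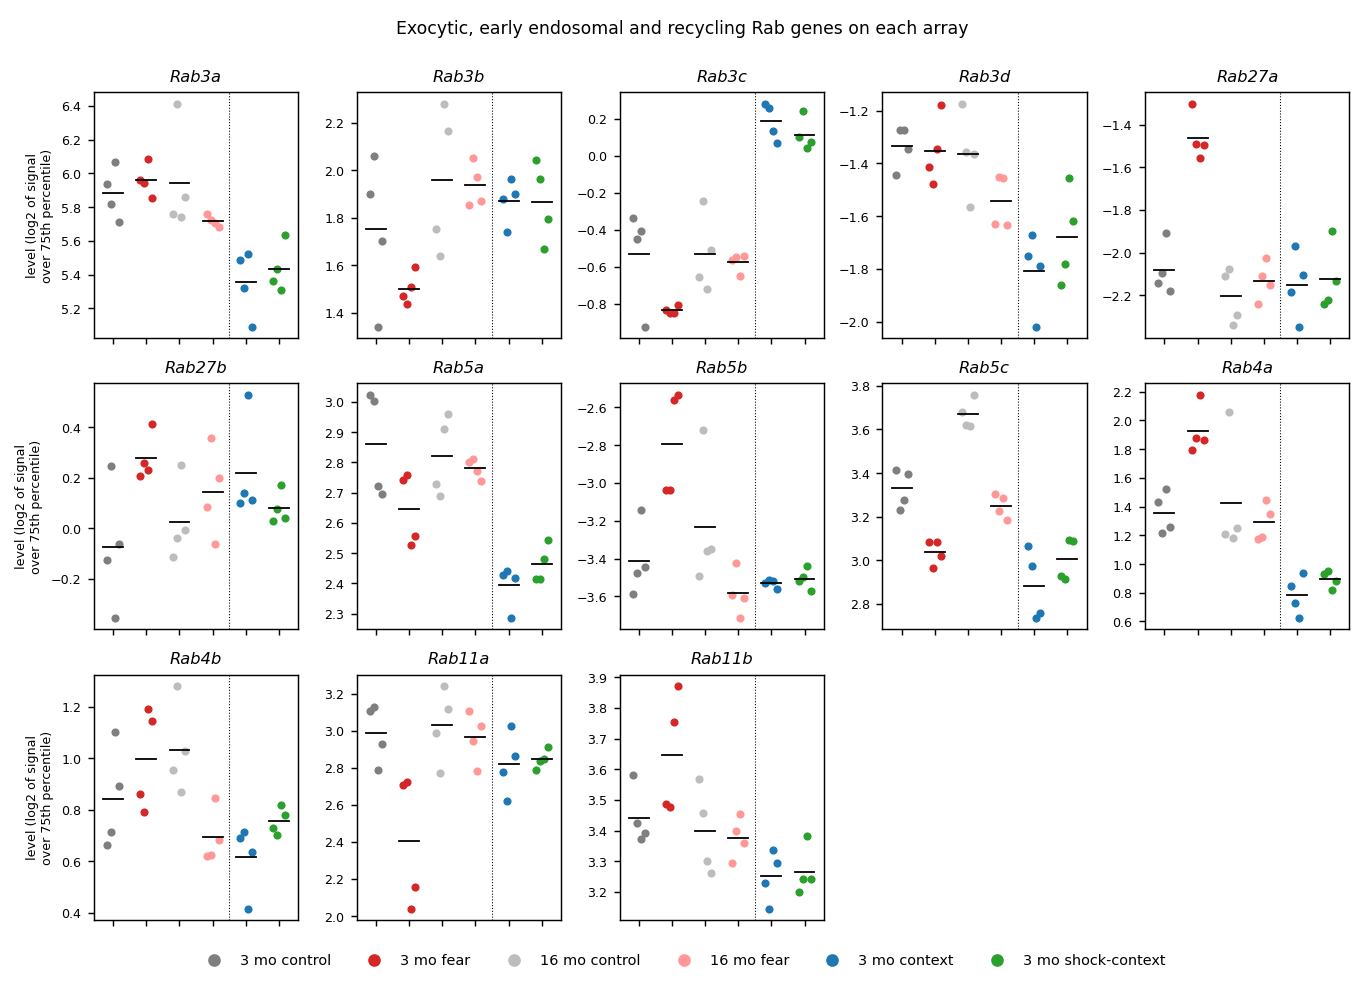
Level (log2 of signal over the 75th percentile of the array) of the 13 exocytic, early endosomal and recycling Rab genes on each of 24 arrays, with group means as lines; the dotted line separates the first scan run from the second. Rab27a in young fear lies between -1.56 and -1.30, above every array of the other groups, and Rab5c falls from control to fear at both ages.

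The early endosomal Rab5 genes went separate ways in young mice. Rab5b was read at chr10:128115534-128115593, with levels of -3.59, -3.48, -3.14 and -3.45 in young control and -3.04, -3.04, -2.56 and -2.53 in young fear. The groups did not overlap, and the rise was 0.62 ± 0.15 (1.54-fold; limma, adjusted p = 0.00186). This was a dim probe, normexp background correction brought the change to 0.11 (adjusted p = 0.835), and the other 2 Rab5b probes changed by -0.11 ± 0.21 and 0.27 ± 0.15. Rab5c lay at 3.42, 3.23, 3.28 and 3.40 in young control and at 3.08, 2.96, 3.08 and 3.02 in young fear. All young fear arrays lay below all young control arrays, a fall of 0.29 ± 0.08 (limma, adjusted p = 0.00723) that was smaller than the median fall of all genes and stood at 0.00 under quantile normalization and at 0.03 in the deposited values. Rab5a, the best studied of the 3, lay at 3.02, 3.00, 2.72 and 2.70 against 2.74, 2.76, 2.53 and 2.56, groups that overlapped, with a change of -0.22 ± 0.09 (limma, adjusted p = 0.06). Another Rab5a probe rose by 0.61 ± 0.14 (adjusted p = 0.00127 over all probes).

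Of the recycling genes, Rab4a rose and Rab11a fell, while Rab4b and Rab11b did not pass. Rab4a, which returns receptors rapidly from early endosomes, was read at chr8:126358901-126358963 and lay at 1.43, 1.21, 1.52 and 1.26 in young control. In young fear it lay at 1.79, 1.88, 2.18 and 1.87, above every young control array, a rise of 0.57 ± 0.15 (1.49-fold; limma, adjusted p = 0.00421). This call held under both scalings, normexp, the deposited values and each treatment of the array pairs. Rab11a, the Rab of the slower perinuclear recycling route, lay at 3.1, 3.13, 2.79 and 2.93 in young control and at 2.71, 2.72, 2.04 and 2.16 in young fear. Arrays 3 and 4 of young fear were the low pair, no array overlapped between the groups, and the fall was 0.58 ± 0.14 (limma, adjusted p = 0.00272), or 0.44 under median scaling (adjusted p = 0.0701). The other 2 Rab11a probes, upstream of the chosen one, changed by -0.12 ± 0.13 and 0.30 ± 0.18 and did not pass. Rab4b lay at 0.66, 0.71, 1.1 and 0.89 in young control and at 0.86, 0.79, 1.19 and 1.14 in young fear, overlapping groups with a change of 0.16 ± 0.12. Rab11b lay at 3.58, 3.42, 3.37 and 3.39 and then at 3.49, 3.48, 3.75 and 3.87, also overlapping, with a change of 0.20 ± 0.10. Rab11b passed under quantile normalization (0.52) and median scaling (0.35), Rab4b under median scaling (0.30), and the most upstream Rab11b probe rose by 0.88 ± 0.13.

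Among the 41 other members, 5 rose in young fear. Rab12 lay at 1.53, 1.75, 1.49 and 1.36 in young control and at 2.51, 2.41, 2.28 and 2.51 in young fear. Every young fear array exceeded every array of the other 5 groups, and the rise of 0.90 ± 0.10 was 1.86-fold (limma, adjusted p = 8.88e-07). Rab7, which governs the fusion of late endosomes with lysosomes and the transport of neurotrophin receptors, lay at 2.51, 2.48, 2.79 and 2.50 in young control and at 3.07, 3.09, 3.40 and 3.18 in young fear. Array 3 was highest in both groups, the groups did not overlap, and the rise was 0.61 ± 0.09 (1.53-fold; limma, adjusted p = 7.61e-06). Rab8b, which carries cargo from the Golgi to the plasma membrane, lay at -0.28, -0.41, -0.88 and -1.06 in young control and at 0.47, 0.54, -0.26 and -0.27 in young fear. Arrays 1 and 2 were higher than 3 and 4 in both groups, and the rise was 0.78 ± 0.28 (limma, adjusted p = 0.0309), with an adjusted p of 0.166 once these array pairs were averaged; the call was also lost without young control array 3 or 4 or young fear array 1 or 2, at 0.64 to 0.70. Rab39b, a neuronal Rab whose loss causes intellectual disability in people, lay at 0.06, -0.11, -1.06 and -0.42 in young control and at 0.07, 0.06, 0.39 and 0.46 in young fear. The groups met at 0.06 without overlapping, and the rise of 0.63 ± 0.20 (limma, adjusted p = 0.014) became 0.40 and lost its call without young control array 3. Rab2b, which acts between the endoplasmic reticulum and Golgi, rose by 0.29 ± 0.09 (adjusted p = 0.0116).

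The falls among other members, 18 in number, included Rabs of the Golgi, of late endosomes and of cilia. Rab20 lay at -2.48, -3.05, -3.12 and -2.64 in young control and at -4.38, -4.01, -3.86 and -4.25 in young fear. No array overlapped, and the fall was 1.30 ± 0.31 (2.46-fold; limma, adjusted p = 0.00218), although the deposited values gave -0.66 (adjusted p = 0.212). Rab9b, a paralogue of the Rab that sends cargo from late endosomes back to the Golgi, lay at 2.65, 2.80, 2.08 and 2.28 and then at 1.77, 1.77, 0.92 and 1.40. The groups were apart, with a fall of 0.99 ± 0.18 (1.98-fold; limma, adjusted p = 0.000198). Rab17, known from epithelial and dendritic sorting, lay at -3.03, -3.60, -2.08 and -2.94 and then at -3.73, -3.59, -3.51 and -4.22. These groups overlapped, and its fall of 0.85 ± 0.28 (adjusted p = 0.0203) lost its call without young control array 3 (-0.57) or young fear array 4 (-0.70).

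Rab23, which restrains Hedgehog signalling at the cilium, lay at 1.01, 0.78, 0.61 and 0.64 in young control and at 0.19, 0.33, -0.16 and -0.31 in young fear. Rab34, which acts in ciliogenesis and on lysosome position, lay at 2.66, 2.67, 2.28 and 2.37 and then at 1.84, 1.94, 1.64 and 1.57. Rab24, linked to autophagy, lay at 3.20, 3.39, 3.20 and 3.18 and then at 2.34, 2.34, 2.57 and 2.78. In each of these 3 genes all young fear arrays lay below all young control arrays, with falls of 0.75 ± 0.14, 0.74 ± 0.11 and 0.73 ± 0.10 (limma, adjusted p = 0.000262, 1.27e-05 and 3.94e-06). Rab1, now named Rab1a, which acts between the endoplasmic reticulum and Golgi, lay at 4.47, 4.76, 4.08 and 3.95 and then at 3.62, 3.56, 3.54 and 3.80, a fall of 0.69 ± 0.15 with no overlap. The other falls that held under both scalings were Rab19 (-0.68), Rab9 (-0.57) and Rab18 of lipid droplets (-0.55), besides Rab20, Rab9b and Rab17.

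Falls that held under the 75th percentile but not under both scalings were Rab43 (-0.66), Rab15 (-0.62), Rab6b (-0.51), Rab6 (-0.48), Rab35 (-0.42), Rab1b (-0.33), Rab13 (-0.33) and Rab14 (-0.31), with Rab11a, Rab3c and Rab5c from the other classes. Of these, Rab1b, Rab13, Rab14, Rab3c and Rab5c fell by less than the median of all genes. Rab21, which traffics integrins, could not be judged: the chosen probe read -5.42 on old control array 2 and between -1.04 and 0.38 on the other 23 arrays, and it changed by 0.58 ± 0.74, whereas its second probe rose by 0.74 ± 0.11 (adjusted p = 2.41e-05 over all probes). A set of 9 genes kept its call under every one of 7 settings, namely quantile, median and normexp processing, the deposited values, the slide as block, and array pairs as a block or averaged: Rab12, Rab7 and Rab4a rose, and Rab9b, Rab23, Rab34, Rab24, Rab1 and Rab9 fell. What share of all genes did so was not counted, so this set has no background. All 7 settings read the chosen probe. Other probes of Rab12, Rab23, Rab34 and Rab1 did not all share the change, as given below.

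**Figure D3:**
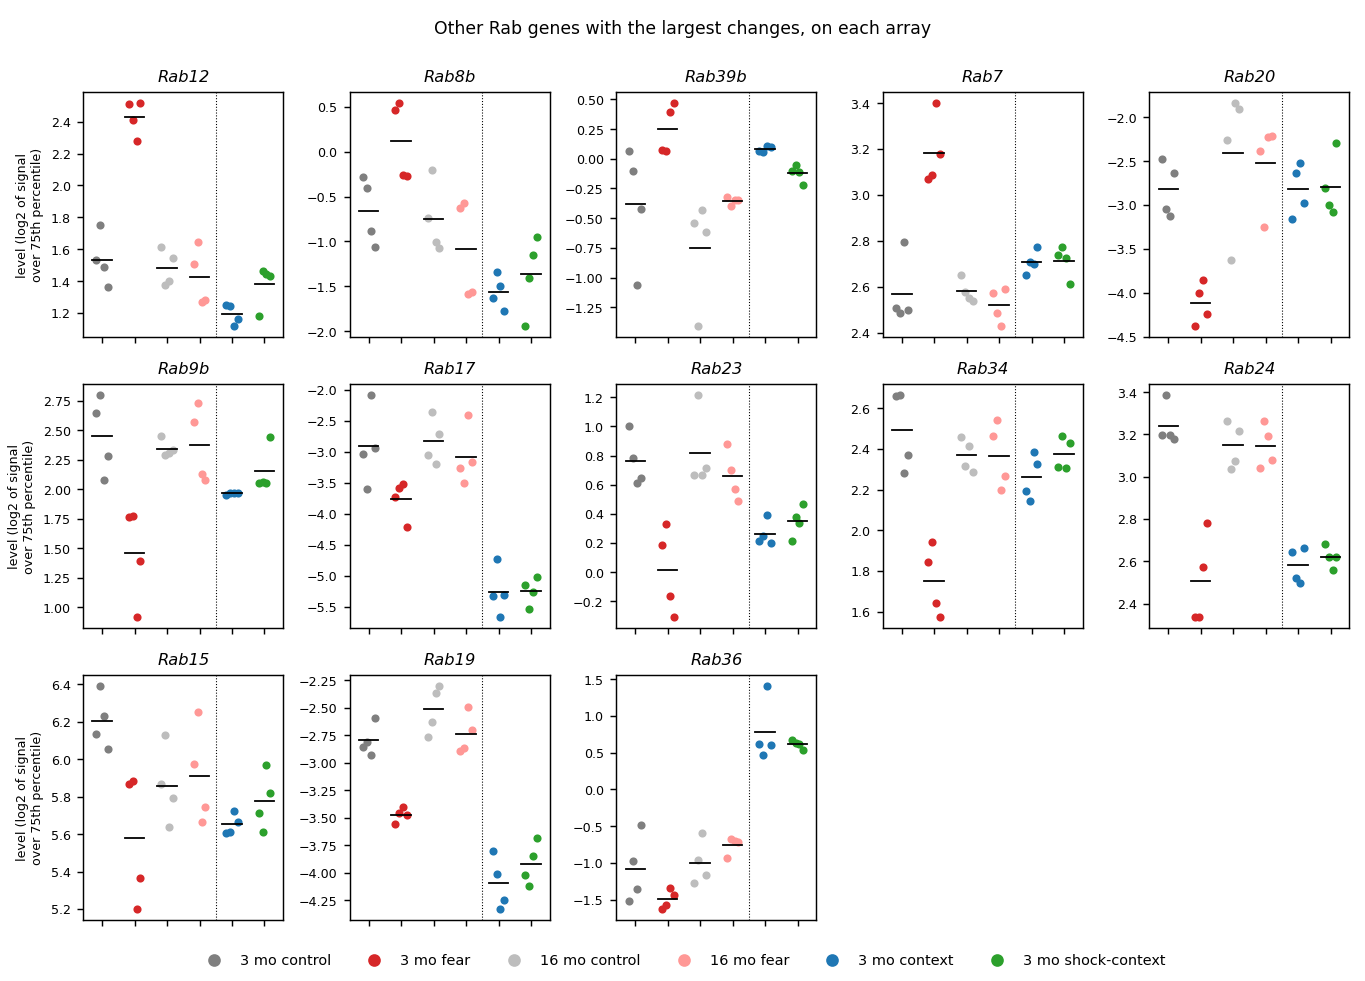
Level (log2 of signal over the 75th percentile of the array) of 13 other Rab genes on each of 24 arrays, with group means as lines and a dotted line between the scan runs. In young fear, Rab12 (2.28 to 2.51) and Rab7 (3.07 to 3.40) lie above, and Rab9b (0.92 to 1.77), Rab34 (1.57 to 1.94) and Rab20 (-4.38 to -3.86) below, all other groups of the first run.

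**Figure D4:**
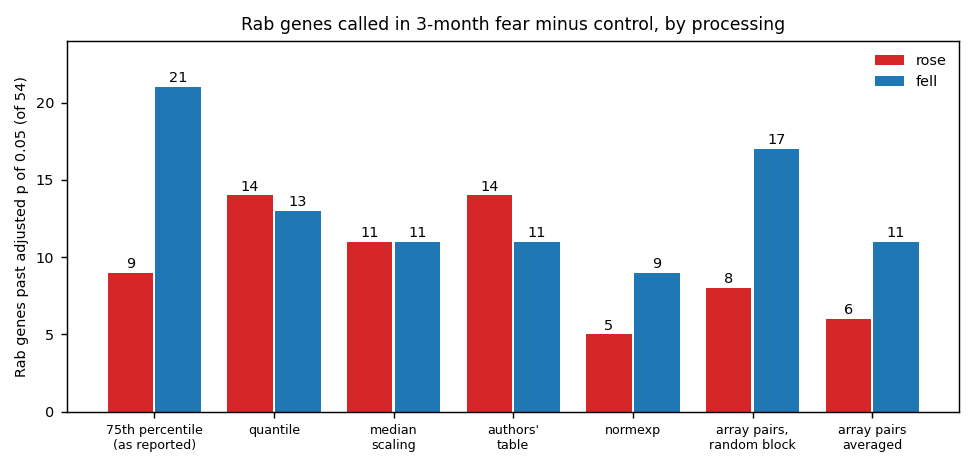
Number of Rab genes, of 54, that rose (red) or fell (blue) in young fear against young control past an adjusted p of 0.05, under 7 ways of processing the same arrays. Falls outnumber rises, 21 to 9, under the 75th percentile, and the counts are 14 and 13 under quantile normalization and 11 and 11 under median scaling.

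The same comparison was made in old mice, to ask whether the Rab response to training was present at 16 months. Of the 54 genes, 1 passed, Rab5c, where 0.15% of all genes passed. An unadjusted limma p under 0.05 was found for 5 of 54 Rab genes and for 3667 of all 26618 genes. Rab5c lay at 3.68, 3.62, 3.62 and 3.76 in old control and at 3.30, 3.23, 3.29 and 3.18 in old fear. All old fear arrays lay below all old control arrays, and the fall was 0.42 ± 0.08 (limma, adjusted p = 0.0416). Its direction was kept under each alternative, with sizes from -0.49 to -0.36, but its call was lost under 9 of them and without old control array 3 or 4 or any 1 of the 4 old fear arrays, at -0.44 to -0.39.

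None of the 9 genes that rose in young mice passed in old mice. Rab12 lay at 1.62, 1.37, 1.40 and 1.55 in old control and at 1.51, 1.65, 1.27 and 1.28 in old fear, a change of -0.06 with a 95% interval of -0.28 to 0.16. Rab7 changed by -0.06 (interval -0.24 to 0.12) and Rab27a by 0.07 (-0.14 to 0.28). Rab4a lay at 1.21, 2.06, 1.18 and 1.25 in old control, with array 2 far above the rest, and at 1.17, 1.19, 1.44 and 1.35 in old fear, a change of -0.14 (interval -0.45 to 0.18). Rab5b went down rather than up, from -3.49, -2.72, -3.36 and -3.35 to -3.59, -3.42, -3.71 and -3.61; the groups overlapped, and -0.35 ± 0.15 (limma, adjusted p = 0.298) became -0.18 without old control array 2. Rab8b changed by -0.33 ± 0.28 and Rab39b by 0.39 ± 0.20, with wide intervals from -0.92 to 0.25 and from -0.02 to 0.81. Rab4b changed by -0.34 ± 0.12 (adjusted p = 0.205), with old fear (0.62, 0.62, 0.85 and 0.68) below old control (0.95, 1.28, 0.87 and 1.03).

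Of the genes that fell in young mice, Rab5c fell in old mice too, as given above, and none of the other 20 passed. Rab34 changed by -0.00 ± 0.11, Rab24 by -0.01 ± 0.10, Rab9b by 0.03 ± 0.18 and Rab9 by 0.04 ± 0.10, and their 95% intervals did not reach the falls seen at 3 months. Rab20 lay at -2.26, -3.62, -1.84 and -1.91 in old control and at -2.39, -3.26, -2.23 and -2.21 in old fear; array 2 was low in both groups, and the change of -0.11 had a wide interval, from -0.77 to 0.54.

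The difference between the responses at the 2 ages was then tested directly, as the old response minus the young one. It passed for 18 Rab genes, 11 higher and 7 lower in old mice, with 23.9% of all genes passing, 16.0% higher and 7.96% lower. The 7 lower ones were the exocytic Rab27a (-0.55 ± 0.14), the early endosomal Rab5b (-0.97 ± 0.21), the recycling pair Rab4a (-0.71 ± 0.21) and Rab4b (-0.49 ± 0.16), and Rab8b (-1.11 ± 0.40), Rab12 (-0.95 ± 0.15) and Rab7 (-0.67 ± 0.12). Of the 18, the 4 that belong to a named class were lower. The remaining genes of the named classes did not pass, among them the recycling Rab11a at 0.52. Whether the classes differ was not tested. The 11 higher ones were all other members. Rab9b (1.02 ± 0.26), Rab34 (0.74 ± 0.15) and Rab24 (0.73 ± 0.14) headed these, followed by Rab15, an endosomal Rab (0.68; 5.87, 6.13, 5.64 and 5.79 in old control and 5.98, 6.25, 5.67 and 5.75 in old fear), Rab1 (0.64), Rab9 (0.61), Rab23 (0.60), Rab18 (0.60), Rab6b (0.58), Rab14 (0.56) and Rab22a (0.40). Rab20 had the largest value, 1.19 ± 0.44, and missed the threshold (limma, adjusted p = 0.058). Over all 105 Rab probes the balance turned, with 17 passing as higher and 21 as lower. Rab1, Rab18 and Rab23 each also had a probe that passed as lower.

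Over all genes the median of this difference was 0.24, or 0.09 under quantile normalization and 0.16 under median scaling. These shifts favour keeping lower calls over keeping higher ones. Under quantile normalization the Rab split was 6 higher and 11 lower and under median scaling 4 and 6, and 10 genes kept their call under both, Rab9, Rab24, Rab34 and Rab9b as higher and Rab5b, Rab27a, Rab12, Rab7, Rab4a and Rab4b as lower. Rab12 and Rab7 passed in all 7 settings above. Neither of these counts was made over all genes. With the slide as replicate block the calls of Rab4a (adjusted p = 0.0575), Rab4b (0.0603) and Rab1 (0.0595) were lost, and Rab20 (0.0485), Rab19 (0.0469) and Rab6 (0.029) passed. Some calls were lost when 1 array was left out. For Rab8b this held for 8 arrays (young control 3 and 4, old control 1 and 2, young fear 1 and 2, old fear 3 and 4), with values of -1.11 to -0.93. For Rab4b this held for 8 arrays (young control 1 and 2, old control 2, young fear 3 and 4, old fear 1, 2 and 4), with values of -0.49 to -0.41. For Rab15 this held for 5 arrays (young control 2, old control 3, young fear 3 and 4, old fear 2), with values of 0.55 to 0.62. For Rab23 this held for 9 arrays (young control 1 and 2, old control 1, 3 and 4, young fear 3 and 4, old fear 1 and 2), with values of 0.49 to 0.59.

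Age alone, in handled mice, separated no Rab gene: 0 of 54 passed by limma in old control against young control, where 0.68% of all genes did. The unadjusted p was under 0.05 for 4 of 54 Rab genes and for 2555 of all 26618 genes. Rab5c came nearest, at 0.34 ± 0.08 (adjusted p = 0.0623), with old control (3.62 to 3.76) above young control (3.23 to 3.42). With Rab5c excepted, every Rab gene overlapped between the control groups, and the share over all genes was not counted.

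Between trained mice the picture differed. In old fear against young fear 19 Rab genes were higher and 11 lower, where 37.9% of all genes passed, 24.8% higher and 13.0% lower. Over all 105 Rab probes the balance turned, with 26 passing as higher and 31 as lower. This comparison shares the young fear arrays with the first, so the values are given side by side and not as a second observation. Rab20 was higher by 1.60 ± 0.31 (limma, adjusted p = 0.00036) and Rab9b by 0.91 ± 0.18, while Rab8b, at -0.63, -0.57, -1.59 and -1.57 in old fear, was lower by -1.21 ± 0.28 and Rab12 by -1.0 ± 0.10 (adjusted p = 2.54e-07). Rab7 was lower by -0.66 ± 0.09, with old fear at 2.57, 2.49, 2.43 and 2.59. Rab39b was lower by -0.60 ± 0.20, with old fear at -0.32, -0.40, -0.35 and -0.35, and lost its call without young fear array 3 (-0.55) or 4 (-0.53). All 4 recycling genes passed, Rab11a as higher (0.56 ± 0.14) and Rab4a (-0.64), Rab4b (-0.30) and Rab11b (-0.27) as lower. The last 2 lost their calls when 1 array was left out: Rab4b without old fear array 1, 2 or 4 or young fear array 3 or 4 (-0.30 to -0.24), and Rab11b without old fear array 1 or 4 or young fear array 3 or 4 (-0.26 to -0.20). Rab36 lay at -1.62, -1.57, -1.34 and -1.43 in young fear and at -0.93, -0.67, -0.70 and -0.72 in old fear, groups well apart with a difference of 0.74 ± 0.20 (adjusted p = 0.00618). This was read at the chosen probe, and over all probes the other Rab36 probe passed as lower. Rab19 lay at -3.56, -3.45, -3.40 and -3.48 in young fear and at -2.89, -2.87, -2.49 and -2.70 in old fear, also apart, with a difference of 0.74 ± 0.13 (adjusted p = 0.000144). Rab3b was higher by 0.43 ± 0.14, which lost its call without old fear array 2 (0.40), and Rab5c by 0.21 ± 0.08, which turned to -0.06 under quantile normalization and -0.11 in the deposited values and lost its call whichever 1 of the 8 arrays was left out (0.19 to 0.24). With the slide as replicate block Rab5c, Rab3b, Rab39b, Rab4b and Rab11b lost their calls (adjusted p = 0.0516, 0.0615, 0.0618, 0.0683 and 0.0846), and Rab15, at 0.33, gained one (0.034). Quantile normalization gave 10 higher and 13 lower and median scaling 8 and 12.

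Several of these results depended on which stretch of the transcript was read. Over all probes, 52 of the 105 Rab probes passed in young fear against young control, 23 as rises and 29 as falls, where 44.7% of all probes did. Of the 35 Rab genes with several probes, 15 had all probes moving one way, and 6 had called probes of opposite sign: Rab1, Rab10, Rab1b, Rab23, Rab27b and Rab6. Rab6, now Rab6a, a Golgi Rab, rose by 0.93 ± 0.14 at the upstream probe printed above and fell by 0.48 ± 0.13 at the downstream one (adjusted p = 1.67e-05 and 0.00626 over all probes). Rab23 rose by 0.53 ± 0.11 upstream and fell by 0.75 ± 0.14 and 0.46 ± 0.13 at the other places. Rab1 had the reverse order, with a fall of 0.69 ± 0.15 upstream and a rise of 0.98 ± 0.12 at the probe beyond it. So the falls given for Rab1, Rab6 and Rab23 were not shared by every probe of the gene. In old fear against young fear 8 genes had called probes of opposite sign: Rab1, Rab10, Rab14, Rab18, Rab23, Rab36, Rab6 and Rab6b. For the difference between the responses 3 did: Rab1, Rab18 and Rab23. The calls given for these genes in those comparisons hold for the chosen probe. Genes with agreeing or opposed probes were not counted over all genes, so these counts have no background.

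In Rab34 the fall of 0.74 ± 0.11 was read at the downstream probe alone, and the upstream one changed by 0.13 ± 0.13. The 3 Rab12 probes gave 1.35 ± 0.13, 0.16 ± 0.19 and 0.90 ± 0.10 from upstream to downstream, so that the outer 2 rose and the middle one did not pass. The overlapping Rab10 probes, which share 40 of 60 bases, rose by 0.45 ± 0.08 and 0.22 ± 0.09 (adjusted p = 0.000122 and 0.0497 over all probes), whereas the most upstream Rab10 probe fell by 1.15 ± 0.30 and the brightest, chosen one changed by -0.01 ± 0.13. Rab31, an endosome-to-Golgi Rab with no call at its chosen probe (-0.02 ± 0.17), rose by 1.42 ± 0.14 at its upstream probe. Rab40c (0.92 ± 0.14), Rab2b (1.14 ± 0.13) and Rab1b (0.69 ± 0.11) also rose upstream, against 0.02, 0.29 and -0.33 at the chosen probe. Rab27a, Rab24, Rab3b and Rab3c were among the genes whose probes moved together.

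Between the outermost probes of a gene, the upstream one changed more positively in 24 of 35 Rab genes in young fear against young control, with a median difference of 0.29, a median size of 0.57 and 6 genes over 1. Over all 8205 genes with several probes, the upstream one was higher in 50.4%, with a median difference of 0.01 and a median size of 0.47, and 19.2% differed by over 1. In old fear against old control the Rab probes differed by a median size of 0.18, and the upstream one was higher in 8 of 35, against 39.0% of all genes. The chosen probe was the most downstream one in 24 of the 35 Rab genes, the most upstream in 7 and between in 4. Base composition of the probes, 21.7 to 55.0% GC with a median of 40.0%, had a Pearson correlation across the 105 Rab probes of -0.02 with the change in young mice and -0.38 with that in old mice, given as a description since probes share arrays and genes.

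**Figure D5:**
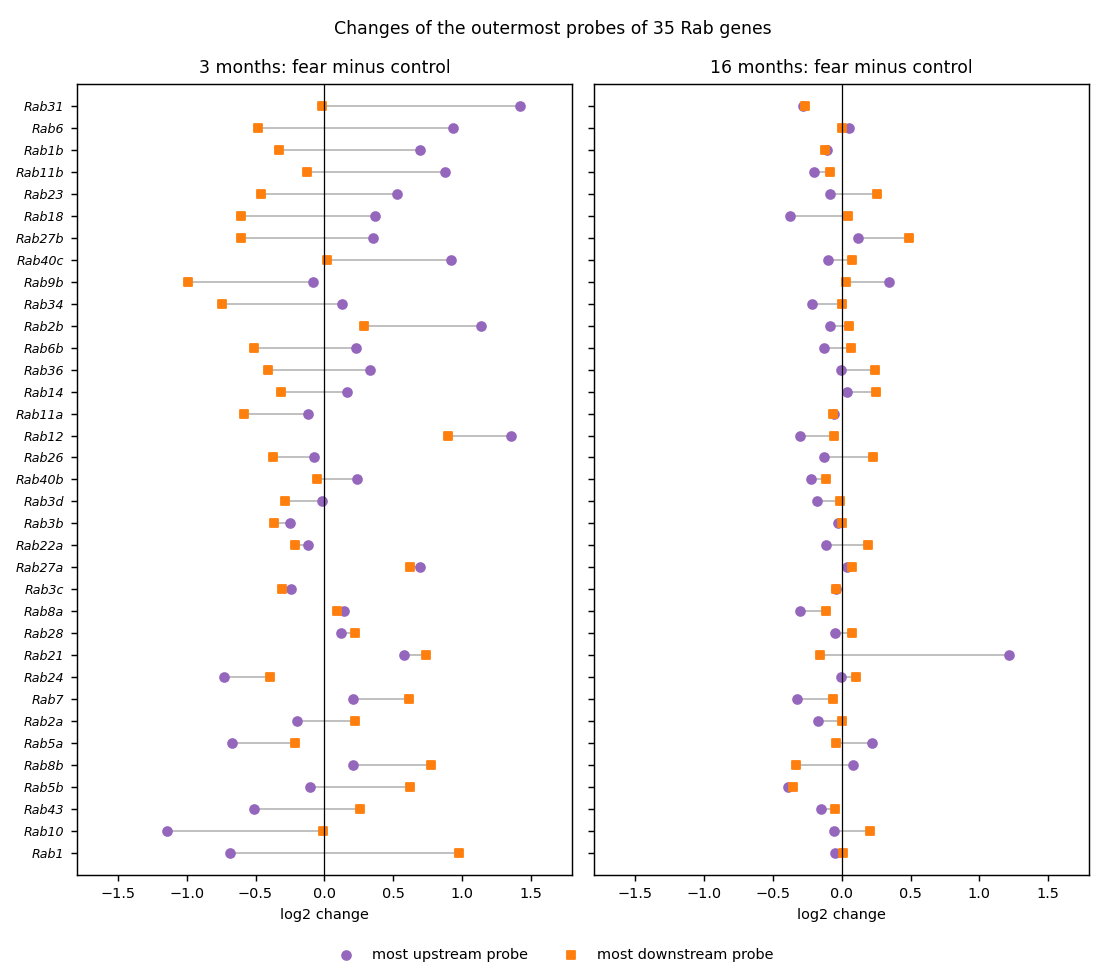
Log2 change after fear conditioning at the most upstream (purple circles) and most downstream (orange squares) probe of each of 35 Rab genes with several probes, at 3 months (left) and 16 months (right). At 3 months the paired points lie a median of 0.57 apart, from -0.02 to 1.42 in Rab31, and at 16 months a median of 0.18 apart.

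A constant subtracted from all levels of an array leaves the log2 ratios of paralogues on it unchanged. For this reason 20 pairs from 13 Rab families were compared, a test added after the data were seen. Quantile normalization and normexp do not shift all probes of an array alike, so the ratios can depend on them. Ratios under those settings were not tested, and the rise of the dim Rab5b probe was smaller under normexp, as given above. With 4 arrays against 4 the smallest p of the exact two-sided permutation test is 0.0286. In young fear against young control 6 pairs reached it, and none passed after adjustment over the 20 pairs (smallest adjusted p = 0.0952). The log2 ratio of Rab5b to Rab5c rose by 0.91, from -6.74 ± 0.25 to -5.83 ± 0.27 (SD, n = 4), with all 4 young fear arrays above all 4 young control arrays. The ratio of Rab11a to Rab11b changed by -0.79, from -0.45 ± 0.12 to -1.24 ± 0.55, and that of Rab3a to Rab3c by 0.38, from 6.41 ± 0.18 to 6.80 ± 0.11, both without overlap. Every ratio was read at the chosen probes alone. Other probes of Rab5b and Rab11a gave smaller or opposite changes, as given above, and their ratios were not tested. The ratio of Rab6 to Rab6b was level, at -0.74 ± 0.06 and -0.70 ± 0.09. In old fear against old control 2 pairs reached the smallest p, and in old fear against young fear 13 did (adjusted p = 0.044), among them Rab5b to Rab5c at -1.0, Rab8a to Rab8b at 1.16 and Rab27a to Rab27b at -0.54. Pairs of 1 family share genes, and pairs of other genes were not counted. The counts of pairs therefore have no background, in a comparison where 37.9% of all single genes passed by limma.

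Genes that load, switch and read Rabs were listed by role and counted in the same comparison of young mice, where the background of 43.4% applies. Of 14 genes of the Rab membrane cycle 3 rose and 4 fell (4 and 3 under quantile normalization). Rabggtb, a subunit of the enzyme that attaches the lipid anchor, fell by 0.66 ± 0.09 (limma, adjusted p = 6.66e-06), and Rabac1, which binds prenylated Rabs at the Golgi, fell by 0.91 ± 0.14 (adjusted p = 1.87e-05). Of 32 exchange factors 6 rose and 8 fell, or 7 and 6 under quantile normalization, led by Dennd4c (0.97) and Dennd4a (0.85), and with Rin1, the Rab5 exchange factor of neurons, at 0.58; Mon1b, part of the Rab7 exchange factor, fell by 0.77. Of 36 GTPase-activating proteins 9 rose and 9 fell, or 13 and 4 under quantile normalization, with Tbc1d12 at 1.53 and Tbc1d2, which acts on Rab7, at -1.46.

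Effectors and related factors were counted by the class of Rab under which they were listed. Whether each binds a Rab of that class directly was not examined. Exocytic effectors gave 6 rises and 4 falls of 20 (6 and 1 under quantile normalization): the priming factors Unc13a (0.66) and Unc13c (0.72) and the calcium sensor Doc2b (1.09) rose, and Rph3a, the effector named for Rab3a, fell by 2.04 ± 0.19 (adjusted p = 6.64e-08). Early endosomal effectors gave 4 rises and 1 fall of 14 (7 and 1 under quantile normalization), with the tether Eea1 at 0.33 and Pik3c3, the lipid kinase of early endosomes, at 0.48. Recycling effectors gave 5 rises and 9 falls of 19 (6 and 7), with the Rab11 effectors Rab11fip4 (1.25) and Rab11fip2 (0.72) up and the membrane-remodelling Ehd1 (-0.76) and Ehd4 (-0.85) down. Of 23 effectors of other Rabs 4 rose and 5 fell, a balance that turned to 7 and 1 under quantile normalization and 6 and 2 under median scaling, among them the Golgi tether Uso1 (0.93) and the Rab7 effector Rilp (-1.38). In old fear against old control 1 gene of all 7 lists passed, Unc13c, at 1.09 ± 0.13 (limma, adjusted p = 0.000485).

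Promoters of 46 Rab genes (58 promoters, short windows around the start, RefSeq on GRCm38.p6) were searched on both strands for motifs of activity-regulated factors. The CRE motif TGACGTCA lay in 2 of 58, those of Rab25 and Rab5a, or 3.45% against 1.79% of all 32851 promoters. Its half-site TGACG, which the full motif contains, lay in 25 (43.1%, against 20.8%), the AP-1 motif TGACTCA in 3, of Rab15, Rab34 and Rab39b (5.17%, against 5.20%), and the Egr motif GCGGGGGCG in 1 (1.72%, against 2.91%). A match describes letters and not a site.

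The context and shock-context groups ask whether the chamber or the shock alone moves Rab genes, and they could be compared with each other within the second scan run. None of the 54 passed by limma in young context against young shock-context, and 0.0% of all genes did; 1 Rab gene, Rab2b (-0.20 ± 0.09), and 1358 of all genes had an unadjusted p under 0.05. Changes ran from -0.22 in Rab25 to 0.32 in Rab39. Levels of the young-fear genes were close in the pair: Rab12 lay at 1.25, 1.24, 1.12 and 1.16 in context and at 1.18, 1.47, 1.44 and 1.43 in shock-context, Rab7 at 2.65 to 2.77 and 2.61 to 2.77, and Rab4a at 0.63 to 0.94 and 0.82 to 0.95.

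Against the other groups of young mice these arrays differ in scan run as well as in treatment, and the run and the group cannot be told apart. In young context against young control 7 Rab genes were higher and 27 lower (70.5% of all genes passed), or 13 and 9 under median scaling, and in young shock-context against young control 5 were higher and 25 lower (66.9% of all genes), or 15 and 5. The median of all genes shifted by -0.48 and -0.42, or -0.13 and -0.04 under median scaling. The largest differences were alike in both, with Rab36 at 1.86 and 1.70, Rab10 at 0.87 and 0.83 and Rab3c at 0.72 and 0.64 as higher, and Rab25 at -2.86 and -2.64, Rab17 at -2.35 and -2.33 and Rab43 at -2.16 and -2.01 as lower; the comparisons share the young control arrays. Rab25, an epithelial relative of Rab11, was well above background on 3 context and 2 shock-context arrays and on all 16 of the first run. Rab36 lay at 0.63, 0.47, 1.40 and 0.61 in context and at 0.67, 0.63, 0.62 and 0.53 in shock-context, above every array of the first run.

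In young fear against young context 21 were higher and 13 lower (65.9% of all genes passed), and in young fear against young shock-context 21 and 16 (64.9%), or 11 and 22 under median scaling. Of all 26618 genes, 12669 passed as higher and 4883 as lower against context, and 12391 and 4886 against shock-context. The median of all genes was 0.33 and 0.31. Of the 9 genes that rose against young control, 7 were also higher here in both comparisons, on the same young fear arrays: Rab8b by 1.68 and 1.48, Rab2b by 1.13 and 0.92, Rab12 by 1.24 ± 0.10 and 1.05 ± 0.10, Rab4a by 1.15 ± 0.15 and 1.03 ± 0.15, Rab27a by 0.69 and 0.66, Rab5b by 0.74 and 0.71 and Rab7 by 0.48 and 0.47. The other 2 passed in neither, Rab27b at 0.06 ± 0.13 and 0.20 ± 0.13 and Rab39b at 0.16 ± 0.20 and 0.37 ± 0.20. Since the 9 genes were picked as high on these young fear arrays, this is not a second observation. The share among all genes that rose was not counted. Of the 6 named falls with a call under every setting above, Rab9b was lower by -0.50 and -0.69, Rab34 by -0.51 and -0.63, Rab9 by -0.72 and -0.59, and Rab23 by -0.34 against shock-context alone, while Rab24 and Rab1 passed in neither under the 75th percentile.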

How the data were processed

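Total RNA of 24 mouse hippocampi was labelled with Cy3 and hybridised to 24 Agilent arrays, per the labels' protocols. The authors deposited 1 scanner file per array, made with Feature Extraction 9.5.3.1 per the file headers, with the processed, mean and background intensity of each spot; the submitters' processing notes also name limma. The authors' deposited table was taken to be log2 from its values and served as an alternative.

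Here the processed intensity was taken to log2, each array's 75th percentile was subtracted, outlier spots were left out, repeat spots were averaged by probe, and a probe was kept (38768 of 41174) if 4 or more arrays read it well above background. Group means were fitted on all 24 arrays in limma 3.58.1 (R 4.3.3, statmod 1.5.0; 18 residual degrees of freedom), two-sided, with Benjamini-Hochberg adjustment over 26618 genes and a threshold of 0.05. Gene names and mm9 positions follow the annotation in the second-run files. Values of every array are given for exocytic, early endosomal and recycling genes and, in comparisons within a scan run, for up to 4 of the largest rises and falls among other members; of each list of Rab regulators or effectors, up to 3 genes of smallest adjusted p a direction were named. Rab members, lists and comparisons were chosen with earlier results of these data known. On simulated data of the young comparison the fit recovered 32 of 50 genes changed by 1, 7 by 0.5 and 12 by -0.5, and called 3 of 26305 unchanged genes. The simulation changed few genes and drew arrays independently, whereas 43.4% of genes passed in the data. Its rates therefore do not carry over to the data. The number of arrays limits the precision.

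The normexp alternative used an offset of 50. In the first run each of 4 slides carried 1 array per group. Same-numbered arrays correlated over 0.1 in 15 of 24 pairs in the first run and in 0 of 4 in the second, so numbers were not taken to pair mice; the slide was tried as a block.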

Additional observations from a re-analysis of the deposited data

Results flagged for a closer look

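In 26 Rab genes, 156 groups of 4 arrays were searched for an array far from the other 3 (beyond Dixon's critical value); chance gives about 1 in 20, or 7.8 groups, and 10 were found. Old control array 2 was the high one for Rab4a, at 2.06 against 1.18 to 1.25, and for Rab23, at 1.22 against 0.66 to 0.71. Young context array 3 was the distant one for Rab27b (0.53 against 0.10 to 0.14), Rab36 (1.40 against 0.47 to 0.63) and Rab5a (2.29 against 2.42 to 2.44). Rab20 on old fear array 2 lay at -3.26, against -2.39 to -2.21. In young control, Rab24 on array 2 lay at 3.39, against 3.18 to 3.20, and Rab7 on array 3 at 2.79, against 2.48 to 2.51. In shock-context, Rab12 on array 1 lay at 1.18, against 1.43 to 1.47, and Rab9b on array 4 at 2.44, against at most 2.06.

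The response to fear conditioning differed between the ages by limma's test of the difference, as the old response minus the young one. It was lower for Rab8b (-1.11), Rab5b (-0.97), Rab12 (-0.95), Rab4a (-0.71), Rab7 (-0.67), Rab27a (-0.55) and Rab4b (-0.49). It was higher for Rab9b (1.02), Rab34 (0.74), Rab24 (0.73), Rab15 (0.68) and Rab23 (0.60). Rab23 also had a called probe of the opposite sign. These are a part of the 18 Rab genes called, where 23.9% of all genes passed. Of the 18, Rab12 and Rab7 alone kept their call under all 7 settings above. Rab8b, Rab4b, Rab15 and Rab23 lost theirs when any 1 of several arrays was left out. The choroid plexus and thalamus marker levels that moved with young fear are given with the data above, and their part in these differences was not tested.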

How the results depend on the processing

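Young fear against young control gave 30 Rab calls, 14 with normexp background correction and 17 with array pairs averaged. Old fear against old control gave 1, and 0 with quantile normalization, median scaling, normexp, the deposited values, a test of every probe, the slide as fixed replicate block, array pairs as random block or averaged, or only the arrays compared. The difference between the responses gave 18, and 10 with median scaling or array pairs as random block, 11 with the deposited values or only the arrays compared, and 4 with normexp or array pairs averaged. Old control against young control gave 0, and 1 with the stricter filter, the slide as random block or the trended robust fit. Old fear against young fear gave 30, and 16 with normexp and 15 with pairs averaged. Young context against young control gave 34, and 22 with median scaling; young fear against young shock-context gave 37, and 22 with normexp. Leaving out 1 array gave 25 to 29 calls in young fear against young control, 0 to 1 in old fear against old control, 13 to 21 for the difference of responses, 0 to 0 in old control against young control, 25 to 30 in old fear against young fear, 0 to 0 in context against shock-context, 31 to 35 in context against control, 25 to 32 in shock-context against control, 31 to 35 in fear against context and 30 to 37 in fear against shock-context. In the first run same-numbered arrays share a slide but are not known to share anything else; with the slide as replicate block the counts were 30, 0, 18, 0 and 26, in the order first given. In the second run the number is not the slide, and with the number as replicate block context against shock-context gave 0. Direction reversed for Rab5c in young fear against young control (0.0048 by quantile normalization, 0.027 in the deposited values) and in old fear against young fear (-0.058 and -0.11), and for Rab5b in old fear against young fear (0.12 with normexp); the cause was not tested. Of the other checks of single called genes, 983 kept direction and call and 179 lost the call; of uncalled ones, 1271 stayed so and 32 gained one. The slide as block in the second run and the paralogue ratios were chosen after seeing the data. The number of arrays limits all comparisons.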
